A study of Mus musculus with 2 samples.

Results

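Heterochromatin is built on methylation of lysine 9 of histone H3 (H3K9). The genes described here are 9 that write or read this mark. They are the methyltransferase genes Suv39h2, Ehmt1, Ehmt2, Setdb1 and Setdb2, the adaptor gene Trim28, and the heterochromatin protein 1 (HP1) genes Cbx1, Cbx3 and Cbx5. They were taken by symbol from the list of rows of the count matrix, and all 9 were found among 50686 gene rows. RNA was measured in single cells from the testes of 2 wild-type C57Bl/6J Crl mice at 8 weeks of age, with 1 droplet library (Chromium 3′ v2 chemistry) per mouse and no treatment. The matrix held 1237 cells of mouse 1 with 27450497 UMIs and 1315 cells of mouse 2 with 30302332 UMIs, with medians of 17871 and 19184 UMIs per cell. A UMI (unique molecular identifier) stands for 1 captured RNA molecule, and no cell barcode was shared between the mice.

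Writers of the SUV39 and SETDB families place trimethylation at repeats and pericentromeres. The Ehmt1 and Ehmt2 proteins act together and mainly place mono- and dimethylation in euchromatin. Trim28 links DNA-binding KRAB zinc finger proteins to Setdb1. HP1 proteins bind methylated H3K9 through a chromodomain and bring further silencing factors. In the male germ line these proteins act at meiotic chromosomes and at the silenced sex chromosomes, and most histones are later replaced by protamines when spermatids condense.

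Cells were grouped by K-means clustering from which the 9 genes and 39 further genes of the pathway had been left out. Their own values thus did not enter the clustering. Genes that vary together with them stayed in, as did the other genes described below. With the 9 and 39 genes kept in, 2524 of 2552 cells stayed in the same cluster. Leaving them out therefore does not make the tests independent of the clustering. Of 9 clusters, 6 had at least 100 cells, and they were put in order by diffusion pseudotime. The order began with an early spermatocyte-like cluster of 163 cells and a pachytene or later spermatocyte-like cluster of 527 cells. A cluster of 691 cells came next, which received no name because only 1 of 11 round spermatid markers passed in it. Then followed a round spermatid-like cluster of 449 cells and 2 elongating or condensing spermatid-like clusters of 210 and 493 cells, called elongating 1 and elongating 2 here. These 2 clusters overlapped in pseudotime, with medians of 0.889 and 0.907. In bins 16, 17 and 18 of 20 bins of equal cell number, elongating 1 had 45, 48 and 32 cells. Elongating 2 had 81, 77 and 94 cells there, so the step between them compares 2 groups and is not shown to be a step in time. The early spermatocyte-like cluster scored almost alike for markers of pachytene or later spermatocytes (1.003 against 0.969) and took its name because more of its early markers passed (7 of 10 against 5 of 10). In the cluster named pachytene or later 9 of 10 of that class's markers passed, in the round spermatid-like cluster 10 of 11, and in each elongating cluster 13 of 13. The other 3 clusters held 7 spermatogonium-like, 7 Sertoli-like and 5 Leydig-like cells.

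Suv39h2 was the gene with the pattern unlike all others, so the sequence before its start is shown beside those of Cbx1 and Cbx3. These were highest in the first cluster of the order. Setdb1 and Ehmt1 were also highest there in both mice but are not shown, and their promoters held none of the motifs searched. The sequences are the 250 bases before the RefSeq transcript start in GRCm38.p6, written 5′ to 3′ on the strand of the gene, with capitals for a match to any of the motifs searched. The Suv39h2 stretch lies at chr2:3474987-3475236 on the minus strand, that of Cbx1 at chr11:96788885-96789134 on the plus strand and that of Cbx3 at chr6:51470366-51470615 on the plus strand.
Suv39h2: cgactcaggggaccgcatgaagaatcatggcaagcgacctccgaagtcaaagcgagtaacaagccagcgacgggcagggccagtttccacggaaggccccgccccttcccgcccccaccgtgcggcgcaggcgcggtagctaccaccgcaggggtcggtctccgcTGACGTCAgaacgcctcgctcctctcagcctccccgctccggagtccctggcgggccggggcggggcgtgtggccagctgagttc
Cbx1: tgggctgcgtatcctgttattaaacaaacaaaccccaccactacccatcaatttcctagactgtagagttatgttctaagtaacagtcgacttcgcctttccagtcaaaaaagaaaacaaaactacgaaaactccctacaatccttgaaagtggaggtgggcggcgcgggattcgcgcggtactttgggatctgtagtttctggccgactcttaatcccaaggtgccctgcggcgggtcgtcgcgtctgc
Cbx3: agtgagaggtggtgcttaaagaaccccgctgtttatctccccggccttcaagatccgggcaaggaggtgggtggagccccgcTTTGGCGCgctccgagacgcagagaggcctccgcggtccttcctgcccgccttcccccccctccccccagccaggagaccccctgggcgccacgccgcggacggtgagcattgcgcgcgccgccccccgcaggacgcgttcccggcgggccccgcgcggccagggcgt
The capitals in Suv39h2 are TGACGTCA, the palindromic cAMP response element, which begins at position -85 from the start, and those in Cbx3 are TTTGGCGC, an E2F-type sequence, at position -168. Promoters of 300 bases, which run 50 bases past the start, were searched on both strands for these letters and for GTTGCCA (part of the RFX site) and GCGCATGC (the NRF1 core). Among 32851 such mouse promoters, 1.79% held TGACGTCA, 0.514% TTTGGCGC, 4.38% GTTGCCA and 2.71% GCGCATGC. Suv39h2 was the only one of the 9 genes whose promoter held TGACGTCA. GTTGCCA was found at position -57 of a further Cbx5 promoter and at position 24 of that of Trim28. GCGCATGC was found in none of the 12 promoters listed for the 9 genes. A further Cbx3 promoter, at chr6:51471002-51471301, held none of the 4 motifs. The Cbx3 stretch shown lies inside the GENCODE span of the gene given below, and those of Suv39h2 and Cbx1 reach partly into theirs. Motif positions are counted from the RefSeq start and would differ from the GENCODE start. These matches describe the letters only.

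All 8 genes that had enough UMIs for a test differed among the 6 germ cell clusters (edgeR quasi-likelihood F test on UMIs summed per mouse and cluster, adjusted p from 1.2e-16 for Cbx1 to 0.0011 for Ehmt2), as did 97.2% of all 13876 genes tested. Ehmt1, with 40 UMIs in all cells, was not tested. Levels below are CPM, the UMIs of a gene scaled by all UMIs of the gene rows in the same sum, in mouse 1 and mouse 2, and differences are fitted log2 fold changes of the later against the earlier cluster with their standard error (SE). Each cluster was compared with the one before it. The fold changes also use a scaling factor per sum (TMM), which CPM do not. Which cluster is highest or lowest, and by what ratio, therefore holds for CPM and can differ after TMM scaling.

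**Figure D1:**
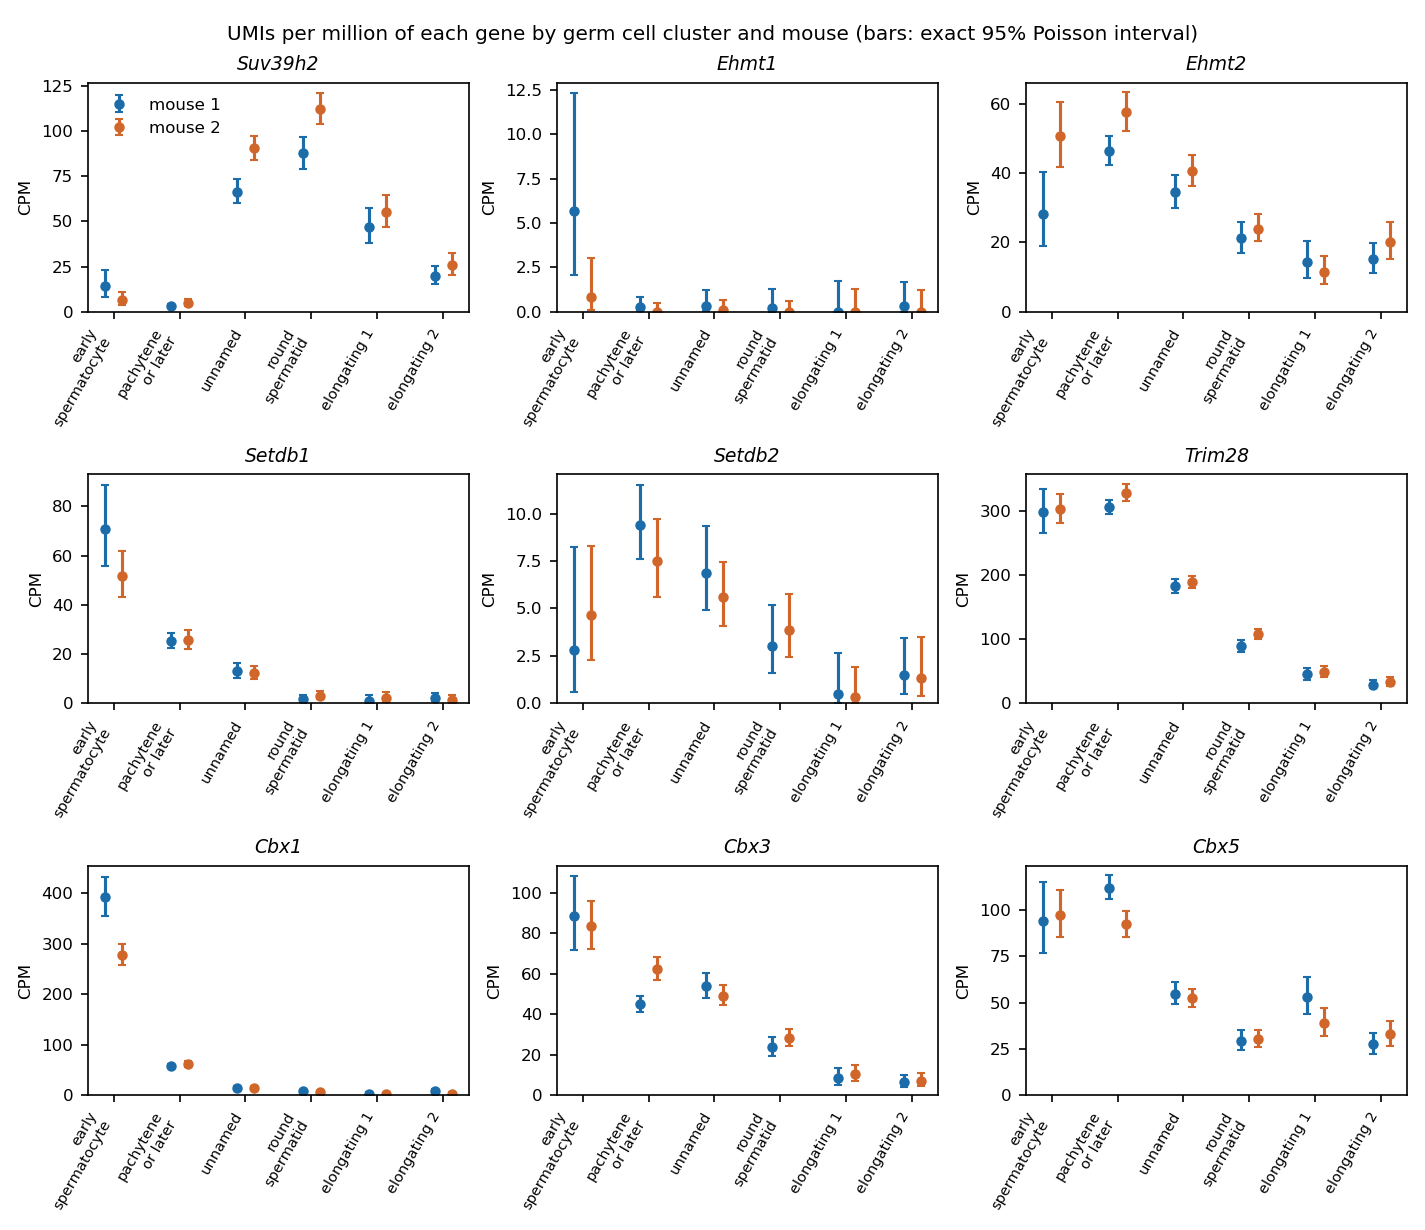
Level in CPM (linear axis from 0) of each of the 9 genes in the 6 germ cell clusters in pseudotime order, with 1 point per mouse and bars for the exact 95% Poisson interval. Suv39h2 is highest in the round spermatid-like cluster (87.7 and 112 CPM), whereas Cbx1, Cbx3 and Setdb1 are highest in the early spermatocyte-like cluster of both mice.

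Suv39h2 encodes the enzyme for H3K9 trimethylation known for its testis expression and lies at chr2:3455815-3475031 (GRCm38, minus strand). Its level was 14.1 and 6.74 CPM in the early spermatocyte-like cluster and 3.01 and 4.89 CPM in the pachytene or later cluster. It then stood at 66.5 and 90.5 CPM in the unnamed cluster, 87.7 and 112 CPM in the round spermatid-like cluster, 47.0 and 55.3 CPM in elongating 1 and 19.8 and 26.1 CPM in elongating 2. In CPM, the unnamed and round spermatid-like clusters were the 2 highest in both mice and the pachytene or later cluster the lowest. With TMM scaling, the fitted steps given below (0.63 and then -0.47) put elongating 1 above the unnamed cluster. The same holds for the steps of each mouse alone. The highest level was 29.2 times the lowest in mouse 1 and 22.9 times in mouse 2. The summed level of the 11 round spermatid markers also rose, from 112 and 119 CPM in the pachytene or later cluster to 2285 and 2616 CPM in the unnamed cluster. In the round spermatid-like cluster it was 4748 and 4701 CPM. Whether these rises are linked was not tested.

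From the pachytene or later to the unnamed cluster Suv39h2 rose 21.6-fold (log2 4.43, SE 0.25, adjusted p = 4.6e-13), in mouse 1 alone by 4.50 and in mouse 2 alone by 4.34 on the log2 scale. From there to the round spermatid-like cluster it rose by a further 0.63 (SE 0.19, adjusted p = 0.0084), a call that was lost when libraries were scaled by total UMIs (0.35, adjusted p = 0.13) or by cell number (0.51, adjusted p = 0.065). Relative to the median of all genes the rise was 0.66, 0.66 and 0.65 with these 3 scalings. The step to elongating 1 gave -0.47 (SE 0.21, adjusted p = 0.07, and adjusted p = 0.0016 with the mouse as replicate block). The step to elongating 2 gave a fall (-0.61, SE 0.24, adjusted p = 0.048) that 4 of 11 alternative settings did not call. The fall at the start, from the early to the pachytene or later cluster, was -1.02 (SE 0.40, adjusted p = 0.035), with -1.88 in mouse 1 alone and -0.30 in mouse 2 alone. It rested on 31 UMIs in the early cluster and was not called in 5 of 11 settings, among them the sums without doublets (adjusted p = 0.066).

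Among the 6 clusters, shares of cells with a UMI were also highest in the unnamed and round spermatid-like ones. After every cell had been thinned to 5000 UMIs, Suv39h2 had a UMI in 6.75% of the early spermatocyte-like cells (exact 95% interval 3.42 to 11.8), in 2.66% of the pachytene or later cells (1.46 to 4.42) and in 32.4% of the unnamed cells (28.9 to 36.0). The share was 39.2% of the round spermatid-like cells (34.7 to 43.9), 23.8% in elongating 1 (18.2 to 30.2) and 10.3% in elongating 2 (7.80 to 13.4). Without thinning the shares were 16.6%, 11.8%, 71.1%, 84.9%, 62.9% and 24.7%. The median depth was 11166 and 12343 UMIs per cell in elongating 2 and 16823 to 23280.5 UMIs in the other 5 clusters. The early cluster had a higher thinned share than the pachytene or later one in mouse 1 (13.5% against 1.62%) but not in mouse 2 (3.60% against 4.11%). No cell type of the testis is sure to lack the gene. The lowest thinned share, 2.66% in the pachytene or later cells, bounds the part of UMIs from free RNA in that cluster only. Depth differed between clusters, and the part of free RNA in the others was not tested. Along 20 bins of equal cell number in pseudotime, Suv39h2 was lowest in bin 3 of both mice (1.42 and 3.23 CPM) and highest in bin 12 of mouse 1 (102 CPM) and bin 13 of mouse 2 (124 CPM). Mouse 2 was above mouse 1 in 5 of 6 clusters. Since there was 1 library per mouse, this difference was not tested.

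**Figure D2:**
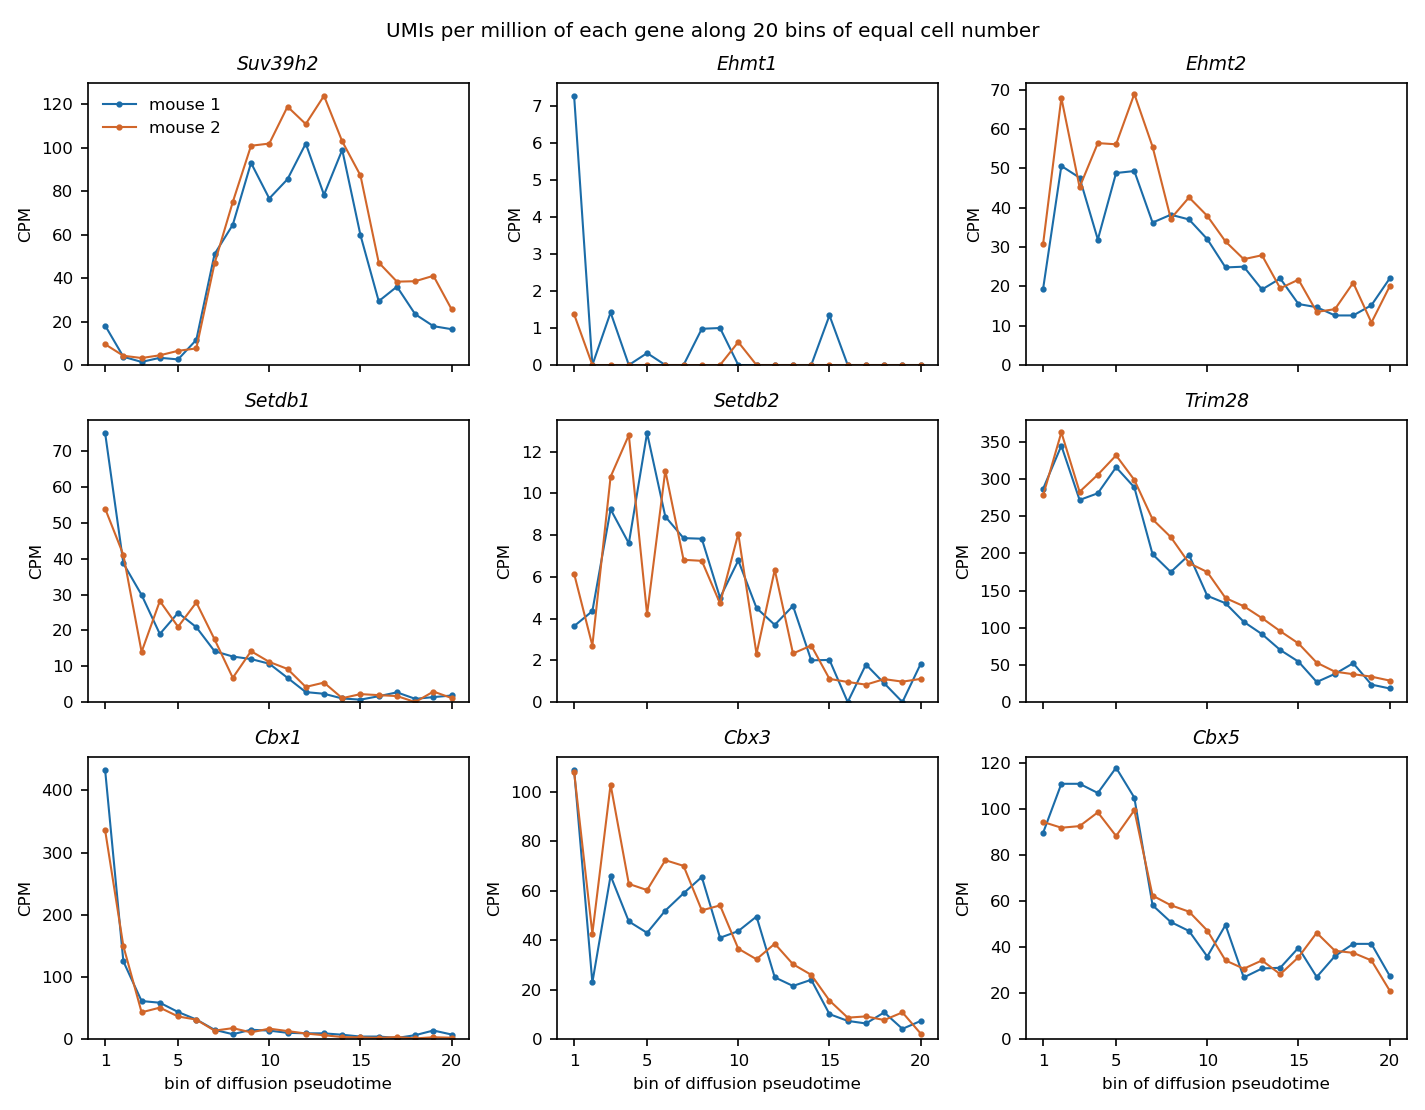
Level in CPM (linear axis from 0) of each gene in 20 bins of 126 or 127 germ cells ordered by diffusion pseudotime, with 1 line per mouse. Suv39h2 peaks in bins 12 and 13, whereas Cbx1, Cbx3 and Setdb1 are highest in bin 1 of both mice.

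Suv39h1, the X-linked paralog of Suv39h2, had 39 UMIs in all cells and was not tested. It had no UMI in the early spermatocyte-like cluster and in elongating 2, 1 to 6 UMIs per mouse in the 3 clusters after the early one, and 4 and 10 UMIs in elongating 1 (1.90 and 3.48 CPM). It was thus at most a few CPM in the clusters in which Suv39h2 was highest, where it stood at 0.687 and 0.730 CPM (unnamed) and 0.233 and 0.668 CPM (round spermatid-like).

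Ehmt2, also called G9a, encodes a methyltransferase of the dimethylating complex and lies at chr17:34898469-34914052 (plus strand). Its levels were 28.3 and 50.6 CPM in the early spermatocyte-like cluster, 46.4 and 57.6 CPM in the pachytene or later cluster and 34.5 and 40.6 CPM in the unnamed cluster. They were 21.2 and 24.0 CPM in the round spermatid-like cluster, 14.3 and 11.5 CPM in elongating 1 and 15.1 and 20 CPM in elongating 2. The range in CPM was narrow, with the highest cluster 3.25 and 5.02 times the lowest. Ehmt2 rose in the step to the pachytene or later cluster (0.54, SE 0.22, adjusted p = 0.044), by 1.06 in mouse 1 alone and 0.35 in mouse 2 alone. Of 11 settings, 4 did not call this, and the lowest change was 0.14. After thinning, mouse 1 went from 11.5 to 34.4 CPM in this step, but mouse 2 went from 61.3 to 53.0 CPM. The thinned shares of cells with a UMI were 18.4% (12.8 to 25.2) and 19.0% (15.7 to 22.6). The 3 steps after the one to the pachytene or later cluster gave -0.38, -0.45 and -0.34 and none passed the threshold. With the mouse as replicate block the steps to the unnamed cluster (adjusted p = 0.004) and to the round spermatid-like cluster (adjusted p = 0.0062) passed. The step to elongating 2 was a rise (1.02, SE 0.29, adjusted p = 0.0074), by 0.65 in mouse 1 alone and 1.36 in mouse 2 alone. With scaling by cell number it became -0.42, where the median of all genes was -1.45, so that relative to this median it was 1.03, against 1.04 with TMM.

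Ehmt1, the gene of the partner protein GLP, lies at chr2:24789928-24919614 (minus strand). It was close to absent from the captured RNA of the germ cell clusters, with 16 UMIs over 2533 cells (0.282 CPM, exact 95% Poisson interval 0.161 to 0.458), of which 8 lay in the early spermatocyte-like cluster (5.66 and 0.843 CPM). Elongating 1 had none in either mouse, which allows up to 0.602 CPM. The other 24 UMIs came from the small clusters, which held 19 cells. There Ehmt1 had a UMI in 6 of 7 spermatogonium-like, 4 of 7 Sertoli-like and 2 of 5 Leydig-like cells. In the spermatogonium-like cells Ehmt1 had 6 UMIs in mouse 1 (211 CPM, interval 77.6 to 460.1) and 7 in mouse 2 (171 CPM, interval 68.7 to 352), and in the Sertoli-like cells it had 7 and 2 UMIs, or 176 CPM in mouse 2. The intervals of both small clusters lie above that of every germ cell cluster, also for mouse 2, whose only Sertoli-like cell gives 21.3 to 636 CPM. They cover counting error only, and 19 cells are too few for a test across mice.

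Setdb1 encodes the enzyme for H3K9 trimethylation that acts with Trim28 at endogenous retroviruses and lies at chr3:95323525-95357202 (minus strand). It was highest in the early spermatocyte-like cluster (70.7 and 51.8 CPM), lower in the pachytene or later cluster (25.4 and 25.7 CPM) and the unnamed cluster (13.1 and 12.4 CPM), and no higher than 3.17 CPM in the 3 spermatid-like clusters. The first 3 steps were falls, by 0.98 (SE 0.20, adjusted p = 3.0e-04), 0.92 (SE 0.20, adjusted p = 3.5e-04) and 2.05 (SE 0.29, adjusted p = 4.2e-06) on the log2 scale, the last with -2.70 in mouse 1 alone and -1.70 in mouse 2 alone. In these steps the mice of the earlier cluster lay above those of the later one without overlap. In the spermatid-like clusters it had 2 to 19 UMIs per mouse, and the last 2 steps (-0.15 and 0.67) did not pass the threshold, so a difference was not detectable at this depth.

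Setdb2, a relative of Setdb1, lies at chr14:59402009-59440884 (minus strand) and was a gene of few UMIs. Its levels were 2.83 and 4.64 CPM in the early spermatocyte-like cluster, 9.41 and 7.48 CPM in the pachytene or later cluster and 6.87 and 5.60 CPM in the unnamed cluster. They were 3.02 and 3.84 CPM in the round spermatid-like cluster, 0.475 and 0.348 CPM in elongating 1 and 1.48 and 1.36 CPM in elongating 2. Unlike Setdb1 it was highest in the pachytene or later cluster of both mice in CPM without thinning. After thinning, mouse 1 was highest in the unnamed cluster (11.6 CPM, against 8.44 CPM in the pachytene or later one). Mouse 2 then had 12.6 CPM in the early and 12.8 CPM in the pachytene or later cluster. Setdb2 rose from the early to the pachytene or later cluster (1.30, SE 0.38, adjusted p = 0.0065). The rise was 2.08 in mouse 1 alone and 0.85 in mouse 2 alone, from 3 and 11 UMIs in the early cluster. Of 11 settings, 2 did not call it, among them DESeq2 (1.03, adjusted p = 0.081), and the lowest change was 0.27. After thinning, 4.91% of the early cells (interval 2.14 to 9.44) and 5.12% of the pachytene or later cells (3.40 to 7.37) had a UMI. Setdb2 fell from the round spermatid-like cluster to elongating 1 (-2.57, SE 0.75, adjusted p = 0.0067). The rise to elongating 2 (2.33, SE 0.90, adjusted p = 0.045, and adjusted p = 0.058 with the mouse as replicate block) rests on 2 UMIs in elongating 1 and 9 in elongating 2, and 9 of 11 settings did not call it.

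Trim28, also called KAP1, encodes the adaptor between KRAB zinc finger proteins and Setdb1 and lies at chr7:12999114-13031035 (plus strand). It had 298 and 303 CPM in the early spermatocyte-like cluster, 305 and 328 CPM in the pachytene or later cluster and 183 and 189 CPM in the unnamed cluster. It had 88.6 and 108 CPM in the round spermatid-like cluster, 45.6 and 49.4 CPM in elongating 1 and 29.3 and 33.9 CPM in elongating 2. The 2 spermatocyte-like clusters were the highest in both mice, and from there the level was lower in each further cluster. On the log2 scale Trim28 fell by 0.69 (SE 0.13, adjusted p = 1.0e-04), 0.63 (SE 0.14, adjusted p = 5.0e-04) and 0.55 (SE 0.15, adjusted p = 0.0048) in the 3 middle steps. The step from the early to the pachytene or later cluster was 0.32 (SE 0.14) with an adjusted p of 0.053, and 0.0057 with the mouse as replicate block. The last step was -0.03 (adjusted p = 0.92) with TMM scaling. It was -0.60 with total UMIs and -1.47 with cell number as scale, both with an adjusted p under the threshold, but the medians of all genes were then -0.58 and -1.45, and relative to them Trim28 stood at -0.02 under each of these 3 scalings.

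The HP1 genes did not share 1 pattern. Cbx1, the gene of HP1 beta, lies at chr11:96789127-96808640 (plus strand). It stood at 393 and 278 CPM in the early spermatocyte-like cluster, 57.2 and 60.9 CPM in the pachytene or later cluster and 13.7 and 15 CPM in the unnamed cluster. The values were 7.21 and 5.68 CPM in the round spermatid-like cluster, 2.38 and 1.39 CPM in elongating 1 and 8.29 and 3.05 CPM in elongating 2. The highest level was 166 times the lowest in mouse 1 and 199.9 times in mouse 2, the widest range of the 8 genes tested. Cbx1 fell in the first 4 steps, by 2.24 (SE 0.18, adjusted p = 8.9e-10), 1.95 (SE 0.20, adjusted p = 1.0e-08), 0.89 (SE 0.26, adjusted p = 0.0061) and 1.31 (SE 0.49, adjusted p = 0.031) on the log2 scale. The fourth of these was not called in 3 of 11 settings.

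After thinning, 74.8% of early spermatocyte-like cells had a Cbx1 UMI (interval 67.5 to 81.3), against 22.8% of the pachytene or later cells (19.3 to 26.6). The share was 6.51% of the unnamed cells (4.79 to 8.62) and 3.34% of the round spermatid-like cells (1.88 to 5.45). Before thinning all 163 early spermatocyte-like cells had at least 1. The step to elongating 2 was a rise (2.23, SE 0.50, adjusted p = 9.7e-04), from 5 and 4 UMIs to 28 and 9 UMIs, and was larger in mouse 1 (2.37) than in mouse 2 (1.69). It was not called with cell number as scale (0.78, adjusted p = 0.21, or 2.23 above the median of all genes) or after thinning (0.94, adjusted p = 0.35). In the same step the summed level of 10 early spermatocyte markers went from 225 and 267 CPM to 109.8 and 78.7 CPM. That of 14 Sertoli cell markers went from 41.3 and 36.9 CPM to 72.8 and 64.8 CPM. Of these 14, 9 and 11 had a UMI in elongating 1 and 10 and 9 in elongating 2. Their part in the result was not tested.

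Cbx1 overlaps a processed pseudogene on the other strand, Gm11517, over 387 bases. Gm11517 had 5087 UMIs and went from 128 and 123 CPM in the early spermatocyte-like cluster to 36.7 and 42.1 CPM in elongating 2, so its level was above that of Cbx1 from the pachytene or later cluster onwards. The authors' mapping summary set reads antisense to exons apart, but whether the counts left such reads out is not stated in the sources used here. Without strand, reads of overlapping genes cannot be told apart. The genes that overlap the others had at most 180 UMIs each, the highest being Gm13184, an antisense gene in Suv39h2, with 14.7 and 12.2 CPM in elongating 1, 13.9 and 10.9 CPM in elongating 2 and at most 3.72 CPM in the clusters up to the round spermatid-like one. On the same strand, Gm38147 and Gm37139 overlap Ehmt1 over 1798 and 4419 bases and had no UMI, and Gm16301 overlaps Setdb2 over 295 bases and had 2 UMIs. Whether shared reads were lost from Ehmt1 or Setdb2 was not tested. Rows named as Cbx3 pseudogenes, of which there were 7, had 1 UMI together.

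Cbx3, the gene of HP1 gamma, lies at chr6:51470360-51483704 (plus strand). It had 88.6 and 83.4 CPM in the early spermatocyte-like cluster, 44.8 and 62.4 CPM in the pachytene or later cluster and 53.9 and 49.1 CPM in the unnamed cluster. Lower levels followed, with 23.5 and 28.2 CPM in the round spermatid-like cluster, 8.55 and 10.4 CPM in elongating 1 and 6.51 and 7.13 CPM in elongating 2. The mice overlapped between the pachytene or later and the unnamed cluster, and that step was 0.03 (SE 0.16, adjusted p = 0.88). The falls to the round spermatid-like cluster (-0.70, SE 0.17, adjusted p = 0.0016) and to elongating 1 (-0.94, SE 0.24, adjusted p = 0.0022) were called in all 11 settings. The fall at the start (-0.44, SE 0.17, adjusted p = 0.033, -0.63 in mouse 1 alone and -0.26 in mouse 2 alone) was not called in 5 of them.

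Cbx5, the gene of HP1 alpha, lies at chr15:103191544-103239816 (minus strand). Its levels were 94.3 and 97.4 CPM in the early spermatocyte-like cluster, 112 and 92.2 CPM in the pachytene or later cluster and 54.8 and 52.2 CPM in the unnamed cluster. They were 29.3 and 30.4 CPM in the round spermatid-like cluster, 53.2 and 39.0 CPM in elongating 1 and 27.5 and 32.9 CPM in elongating 2. The 2 spermatocyte-like clusters overlapped, with a step of 0.34 (SE 0.16, adjusted p = 0.091, and adjusted p = 0.027 with the mouse as replicate block). Cbx5 then fell by 0.86 (SE 0.15, adjusted p = 4.3e-05) and 0.55 (SE 0.17, adjusted p = 0.0088) on the log2 scale. From the round spermatid-like cluster to elongating 1 it was the only one of the 8 genes that rose (1.10, SE 0.18, adjusted p = 2.5e-05), by 1.32 in mouse 1 alone and 0.88 in mouse 2 alone, while Cbx1 and Cbx3 fell. Only the thinned counts did not call this rise (0.71, adjusted p = 0.069).

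**Figure D3:**
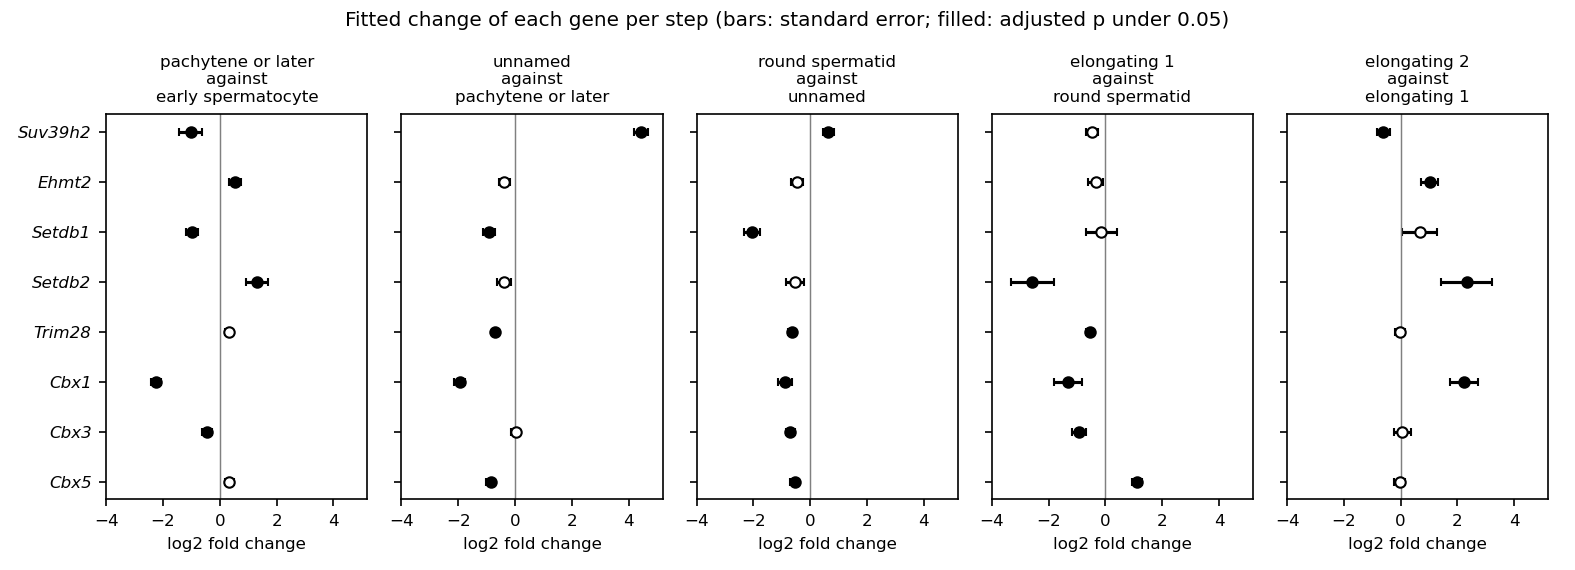
Log2 fold change with its standard error for the 8 tested genes (vertical) in the 5 steps between neighbouring clusters (panels), from the edgeR fit with TMM scaling; filled points have an adjusted p under 0.05. Suv39h2 stands at 4.43 in the step from the pachytene or later to the unnamed cluster, where the other 7 genes lie at or below 0.03.

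Counted by step, 2 of the 8 tested genes were higher and 4 lower in the pachytene or later than in the early spermatocyte-like cluster, where 25.6% of all genes were higher and 25.1% lower (50.6% in either direction). In the unnamed against the pachytene or later cluster 1 was higher (Suv39h2) and 4 lower, with 32.4% and 30.0% of all genes (62.4% in either direction). In the round spermatid-like against the unnamed cluster 1 was higher (Suv39h2 again) and 5 lower, with 26.9% and 19.4% of all genes (46.2% in either direction). In elongating 1 against the round spermatid-like cluster 1 was higher (Cbx5) and 4 lower, with 23.2% and 23.0% of all genes (46.1% in either direction). In elongating 2 against elongating 1 there were 3 higher (Ehmt2, Setdb2 and Cbx1) and 1 lower (Suv39h2), with 15.7% and 23.4% of all genes (39.1% in either direction). The median change of the 8 genes was -0.06, -0.53, -0.59, -0.51 and 0.36 in these steps, and that of all genes was 0.00, -0.02, -0.03, -0.11 and -0.02.

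How libraries are scaled bears on these directions, since the TMM factors went from 1.66 and 1.51 in the early spermatocyte-like cluster to 0.506 and 0.488 in elongating 2. There the 5 most abundant genes took 19.6% and 16.5% of the UMIs against 2.83% and 3.0%. With total UMIs in place of TMM, the median change of all genes was -0.23, -0.09, -0.31, -0.60 and -0.58 in the 5 steps. With UMIs per cell it was 0.42, -0.82, -0.13, -0.55 and -1.45, and with DESeq2 size factors -0.32, 0.03, 0.01, -0.02 and 0.17. Of the called genes, TMM put 50.5%, 51.9%, 58.1%, 50.2% and 40.2% on the higher side. Total UMIs put 39.3%, 40.1%, 30.0% and 14.2% there in steps 1, 3, 4 and 5. UMIs per cell put 69.4%, 27.5%, 31.7% and 0.418% in steps 1, 2, 4 and 5, and DESeq2 36.3% and 53.3% in steps 1 and 5. The rise of Suv39h2 into the unnamed cluster kept its direction under all 4 scalings, with or without the median of all genes subtracted. So did the falls of Cbx1 and Setdb1 in the first 3 steps. Relative to this median, the 40 changes of the 8 genes differed by at most 0.11 between the 4 scalings. Of these, 2 changed sign (Trim28 and Cbx5 in the last step, between -0.02 and 0.02). A change of scaling moves all genes of a step by nearly the same amount. Agreement relative to the median, here and above, therefore follows from the measure and does not show which scaling is right.

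**Figure D4:**
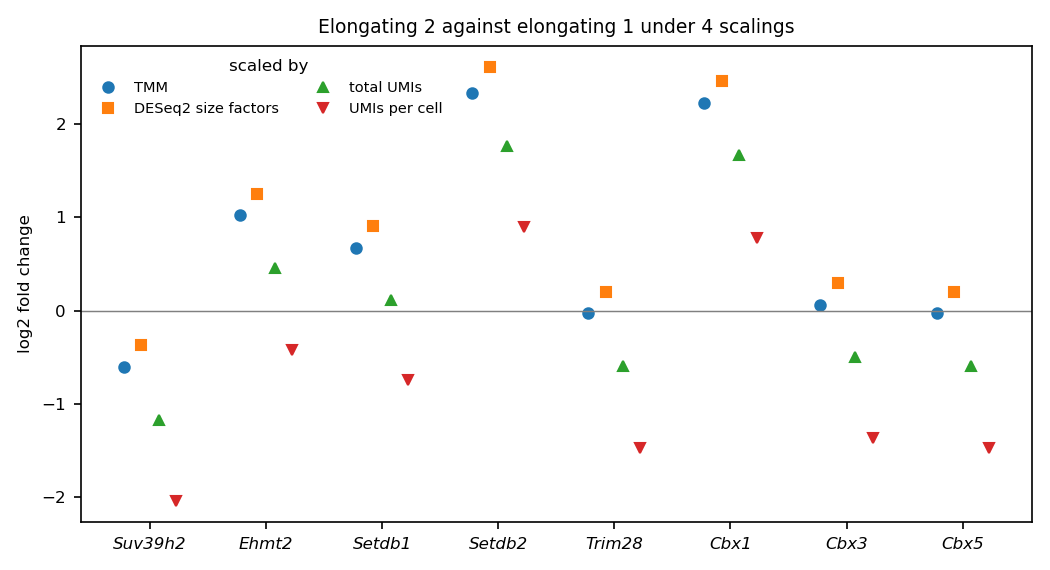
Log2 fold change of the 8 tested genes in elongating 2 against elongating 1 under 4 ways of scaling the libraries (marker shapes). With UMIs per cell, where the median of all genes is -1.45, 2 genes stay above 0 (Setdb2 at 0.90 and Cbx1 at 0.78), and Suv39h2 is below 0 under each.

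Over the 12 sums per mouse and cluster, Suv39h2 was negatively correlated with each of the 7 other tested genes (Pearson r of log2(CPM + 1) from -0.75 with Cbx5 to -0.34 with Cbx3). All pairs among those 7 were positively correlated (0.55 to 0.98). These points share libraries, and the values are descriptions without a test. They use CPM without TMM factors, so the shifts in composition between clusters enter all of them, and that part was not tested. The gene most like each in this measure, out of 13876, was Ttc39a for Suv39h2 (0.987), Gabarap for Ehmt2 (0.976), Rtcb for Setdb1 (0.991) and Anxa7 for Setdb2 (0.976). For the adaptor and the readers it was Tmem59 for Trim28 (0.996), Rab18 for Cbx1 (0.996), Mrpl46 for Cbx3 (0.994) and Polr1a for Cbx5 (0.980).

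The small clusters extend the picture to cells before meiosis and to somatic cells, with few cells each. In the spermatogonium-like cells (3 of mouse 1 and 4 of mouse 2) Cbx1 was at 352 and 366 CPM, Cbx3 at 529 and 269 CPM, and Trim28 at 247 and 122 CPM. Ehmt2 was at 106 and 171 CPM and Suv39h2 at 106 and 147 CPM, the last from 3 and 6 UMIs. These Suv39h2 levels lay above those of the round spermatid-like cluster (87.7 and 112 CPM), but their intervals were wide (21.8 to 309 and 53.8 to 319 CPM). Setdb2 had no UMI there, which allows up to 43.3 CPM. Over all 19 cells of the small clusters Cbx3 had 251 CPM (interval 187 to 332) against 40.4 CPM in the 6 germ cell clusters (38.8 to 42.1). Cbx1 had 211 CPM (152 to 286) against 42.8 CPM (41.1 to 44.5), whereas Trim28 had 116 CPM (73.3 to 174) against 188 CPM (185 to 192). Both sides of these contrasts pool unlike cells. Over both mice Trim28 had 173 CPM (89.4 to 302) in the spermatogonium-like, 124 CPM in the Sertoli-like and 20.4 CPM, from 1 UMI, in the Leydig-like cells. Its germ cell clusters ran from 315 CPM (pachytene or later) to 31.5 CPM (elongating 2). Cbx1 had 314 CPM in the early spermatocyte-like cluster, above its 211 CPM here. These small clusters were described only.

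Beside the 9 genes stand 39 others of the pathway in 5 lists, of which 35 were tested. In the step from the early to the pachytene or later cluster 6 of the 35 were higher and 20 lower, and in the next steps 8 and 16, 10 and 13, 6 and 10, and 4 and 9. Together these are 74.3%, 68.6%, 65.7%, 45.7% and 37.1% of the 35, against 50.6%, 62.4%, 46.2%, 46.1% and 39.1% of all genes called in either direction. The medians were -0.79, -0.40, -0.26, -0.69 and -0.10. Among 11 H3K9 demethylases, which remove the mark, 2 rose and 6 fell in the first step, 2 and 5 in the second, 4 and 4 in the third, 4 and 3 in the fourth and 1 and 3 in the last. Of 9 partners of Setdb1 and Trim28, 1 rose and 5 fell in the first step, 2 and 7 in the second, 1 and 6 in the third, 1 and 2 in the fourth and 2 and 2 in the last. Of 4 partners of Ehmt1 and Ehmt2, all 4 fell in the first step. In the later steps 3 rose and 0 fell, 3 rose and 0 fell, 1 rose and 2 fell, and 0 rose and 1 fell. Of 9 tested genes of HP1 binding and heterochromatin proteins, 2 rose and 5 fell in the first step, followed by 1 and 3, 1 and 2, 0 and 2, and 1 and 3, where the second to the fourth step come to 44.4%, 33.3% and 22.2% of the list and so lie below the shares of all genes. The other H3K9 methyltransferases gave 2 tested genes, Prdm2 and Prdm16, with at most 1 call per direction and step.

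**Figure D5:**
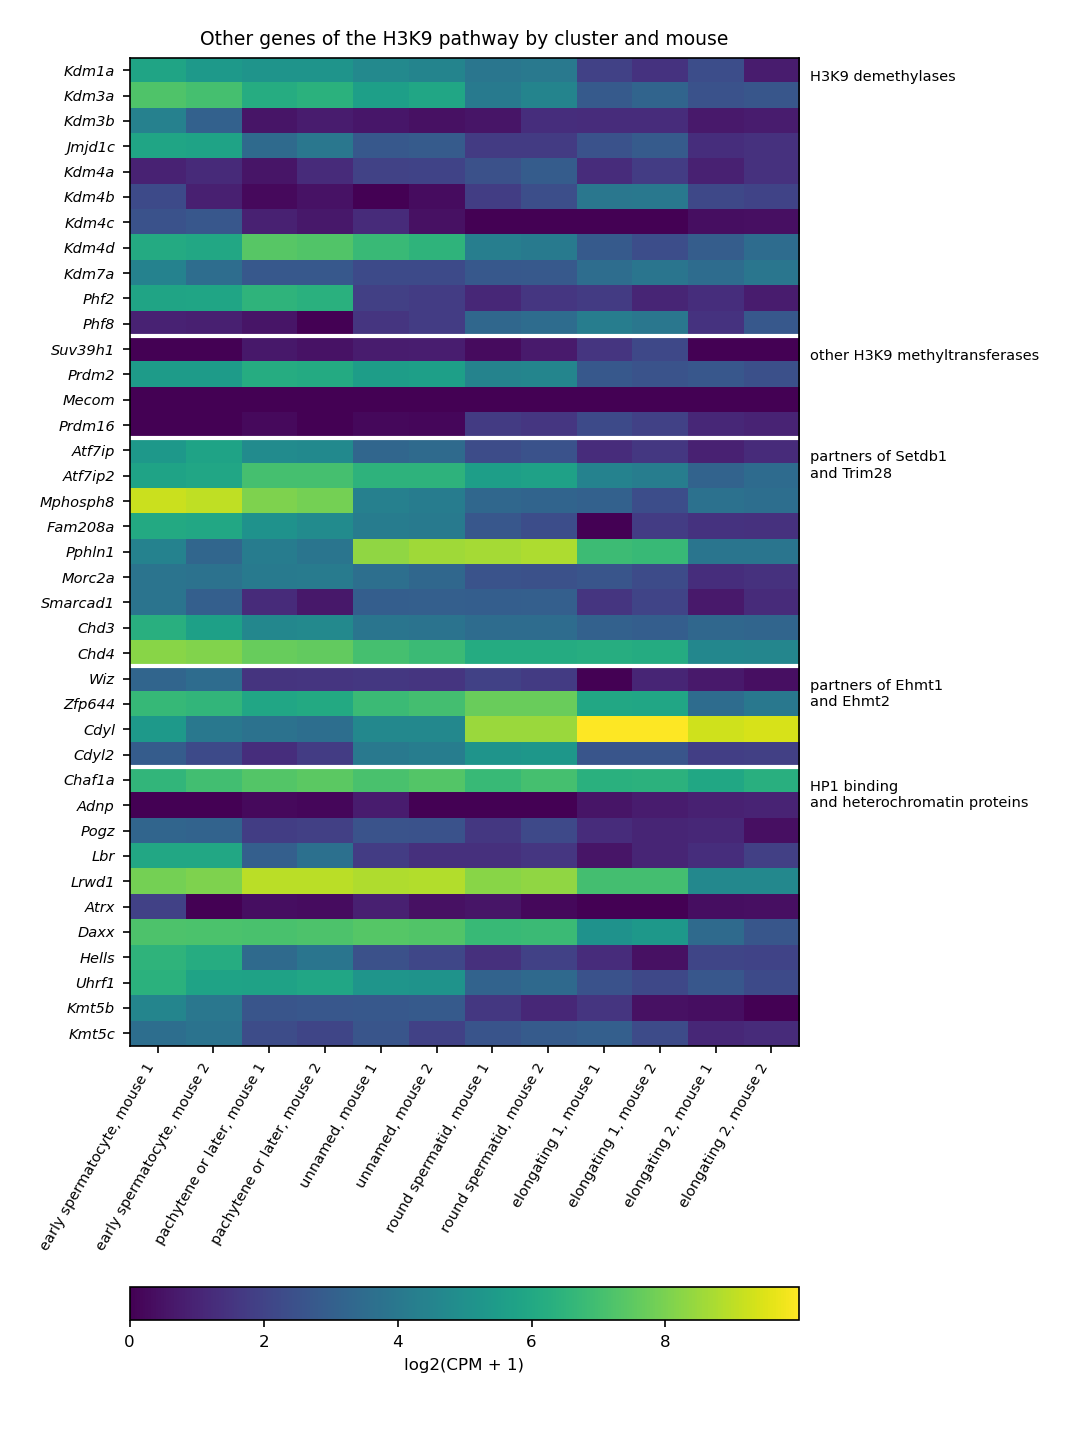
Level as log2(CPM + 1), by colour, of the 39 other genes of the pathway (rows, in 5 lists) in the 6 germ cell clusters of each mouse (columns). Pphln1 and Cdyl reach their highest values after the 2 spermatocyte-like clusters, whereas Phf2 and Hells are highest within them.

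The genes of these lists with the largest called rise and fall per step are named, and Cdyl and the third step of Kdm4d were added after their values had been seen. Kdm4d, a demethylase gene, rose in the first step from 68.8 and 62.0 CPM to 169.8 and 153 CPM (1.56, SE 0.17, adjusted p = 8.0e-08). In the third step it fell from 109 and 89.5 CPM to 18.6 and 16.2 CPM (-2.23, SE 0.17, adjusted p = 4.8e-10). Kdm3b fell in the first step from 19.8 and 7.59 CPM to 0.485 and 0.680 CPM (-4.09, SE 0.53, adjusted p = 1.1e-06). Pphln1, which encodes the HUSH complex protein periphilin, rose in the step in which Suv39h2 rose, from 17.5 and 13.6 CPM to 326 and 380.3 CPM (4.57, SE 0.19, adjusted p = 3.5e-15). In that step the demethylase gene Phf2 fell from 89.4 and 81.4 CPM to 2.75 and 2.43 CPM (-4.96, SE 0.22, adjusted p = 1.4e-14). Pphln1 also had the largest fall of the last step, from 114 and 107 CPM to 13.6 in both mice (-2.46, SE 0.21, adjusted p = 5.0e-09).

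In the third step the largest rise and fall were those of 2 demethylase genes with few UMIs. Kdm4b rose from 0 and 2 UMIs to 11 and 26 UMIs (4.67, SE 0.69, adjusted p = 6.2e-06). Kdm4c fell (adjusted p = 0.02) from 8 and 3 UMIs to no UMI in either mouse, at least 2.69-fold lower over both mice with 3 counts as the floor. Cdyl and Kdm4d had the largest changes of that step among genes with a UMI in all 4 sums.

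Cdyl, the gene of a chromodomain protein that binds methylated H3K9 and Ehmt2, rose from 24.6 and 24.7 CPM in the unnamed cluster to 359.7 and 361 CPM in the round spermatid-like cluster (4.15, SE 0.20, adjusted p = 3.9e-13). It stood at 1020.3 and 1009 CPM in elongating 1. Its relative Cdyl2 had the largest fall of the step to elongating 1, from 35.1 and 38.1 CPM to 5.23 and 5.22 CPM (-2.31, SE 0.27, adjusted p = 2.3e-07). Kdm4b had the largest rise of that step, from 2.56 and 4.34 CPM to 14.7 and 15 CPM (2.55, SE 0.36, adjusted p = 3.2e-06). Hells, which encodes a chromatin remodeller, had the largest rise in elongating 2, from 3 and 1 UMIs to 11 and 9 UMIs (log2 change 2.5, SE 0.66, adjusted p = 0.004).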

How the data were processed

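Demultiplexing and counting were done by the authors with Cell Ranger 2.0.0 and bcl2fastq 2.17.1.14, against a repeat-masked GRCm38 genome (mm10, Ensembl release 89) to which RepBase 17.04 sequences had been added. Both mice were combined with downsampling of reads. The deposited matrix holds whole UMI counts per row and cell. All 2552 cells and 51868 rows were kept. Repeat rows (1182, with 1.33% and 1.49% of the UMIs) stayed out of library sizes and tests. The mouse of a cell was read from the ending number of its barcode. The 9 genes, the lists and the tests were chosen with earlier results of these data known. The tie rule that named the early spermatocyte-like cluster (scores within 0.05) was added once the clusters were known.

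Counts were scaled, log-transformed and clustered by K-means (K = 9, seed 42) on 10 principal components of 27743 rows. A marker passed at 1.5 times the CPM of all cells, and a name needed 3 markers. Scrublet called 25 doublets, which were kept. UMIs were summed per mouse over the 6 clusters of at least 100 cells, giving 12 sums, since cells are not replicates. The main test was edgeR's quasi-likelihood test (edgeR 4.0.16, R 4.3.3) with TMM scaling and filterByExpr. P-values were adjusted by the Benjamini-Hochberg method over 13876 genes with a threshold of 0.05. Both mice come from 1 condition, so p-values measure the spread between the sums of 2 animals. Sums of the same number come from the same animal. The deviations of log CPM correlated between clusters of 1 mouse at 0.023 to 0.228, with 7 of 15 pairs over 0.1, and a fit with the mouse as replicate block is among the alternatives. The others were DESeq2 1.42.0, no filter, K = 10, seed 1, the genes kept in the clustering, no doublets, no cells above 50000 UMIs, thinning to 5000 UMIs per cell and each mouse alone. Scaling by total UMIs and by cell number was added after the TMM factors had been seen. The tests were checked on simulated data in which few genes changed, equally up and down in a single cluster, with independent sums. That check does not cover data in which most genes change or sums of the same mouse are correlated. Intervals are exact, at 95%, and cover counting error only, and where no UMI was found the limit is 3 counts of the total. Positions are those of GENCODE vM21 (GRCm38). Sequences are from RefSeq (GRCm38.p6), and all 9 genes matched by symbol. Named genes are the 9, Suv39h1, the genes of the other lists with the largest called rise and fall per step in the same direction in both mice (Cdyl was added later), and the gene with the highest correlation to each. Calculations also used Python 3.11.15, scanpy 1.11.5 and scikit-learn 1.9.0. Reads, alignments and the authors' cell type table were not used here.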

Additional observations from a re-analysis of the deposited data

How the results depend on the processing

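Of the 40 results for a single gene and step, DESeq2 kept the call of 35, K = 10, the other seed and clustering with the genes kept 38 each, sums without doublets 36, without cells above 50000 UMIs 35, no filter 32, total UMIs 29, thinning 25 and UMIs per cell 24, which also gave the 1 reversal, of Ehmt2 in elongating 2 (-0.42, with the median of all genes at -1.45). The number of the 8 genes called in the first step was 6, and 3 without cells above 50000 UMIs and 2 after thinning, where 50.6%, 50.2% and 44.4% of all genes were called. In the second step it was 5, and 8 with UMIs per cell, with 62.4% and 76.7% of all genes. In the fourth step it was 5, and 1 after thinning (46.1% and 37.4% of all genes), and in the last step 4, with 2 by DESeq2 and 1 after thinning (39.1%, 37.8% and 33.0%). Of the other genes of the pathway, 13 of 35 were called in the last step and 21 with UMIs per cell, shares near those of all genes (39.1% and 62.0%). Of the levels per gene and cluster, 29 were classed as the same after thinning and 25 as moved. Without doublets, 53 were classed as the same and 1 as moved. Thinning keeps 5000 UMIs of each cell, so each sum has fewer UMIs and each cell has the same weight in it. The causes of these shifts, those after thinning included, were not tested.

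With the mouse as replicate block, 34 of the 40 calls were kept, 5 were gained and 1 was lost, as given beside the results, and it changed no other call of the 9 genes. With 1 mouse left out no residual degrees of freedom remain among 6 sums, so no counts of calls could be given, and each mouse alone gave values without a test. Cluster order, naming and the split between elongating 1 and elongating 2 rest on this clustering. Sums under 10 UMIs in at least 1 mouse are limited by depth. These are all sums of Ehmt1 and Suv39h1, Setdb1 in the 3 spermatid-like clusters, Setdb2 in the early spermatocyte-like and both elongating clusters, and Cbx1 in both elongating clusters.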

Other observations

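Protein-coding genes on the other strand start within 1000 bases of the GENCODE start of 5 of the 9 genes. Hnrnpa2b1, an RNA-binding protein gene whose start lies 466 bases from that of Cbx3, was like Cbx3 highest in the early spermatocyte-like cluster and lowest in elongating 2. It went from 752 and 631 CPM in the early spermatocyte-like cluster to 111 and 117 CPM in the pachytene or later cluster and 26.6 and 21.7 CPM in elongating 2. Cab39l starts 88 bases from Setdb2 and was highest in the round spermatid-like cluster (149 and 171 CPM). Setdb2 had been highest before that, in the pachytene or later cluster, in CPM without thinning. Hnrnpa1, 616 bases from Cbx5, was highest in the unnamed cluster (29.7 and 25.7 CPM) and stood at 8.55 and 3.13 CPM in elongating 1, in which Cbx5 rose. C2, 204 bases from Ehmt2, and Slc27a5, 922 bases from the annotated start of Trim28, had at most 10 UMIs per mouse and cluster. That start of Trim28 is at chr7:12999114, whereas the RefSeq promoter searched for motifs lies further into the gene span, at chr7:13023902-13024201. These genes were chosen by position, and the values are descriptions without a test.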
